A study of Solanum lycopersicum with 18 samples.

Results

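*N*6-methyladenosine (m6A) in the mRNA of *Cnr* fruit at 42 days post-anthesis (DPA) was compared with that of wild-type fruit at 39 DPA, to ask whether the mutant, which fails to ripen, resembles the less ripe wild type. The wild type is the tomato cultivar Ailsa Craig, whose fruit was at the mature green stage at 39 DPA. *Colorless non-ripening* (*Cnr*) is an epimutant in which DNA hypermethylation at a gene for an SBP-box transcription factor is inherited and the fruit does not turn red or soften normally. Each of the 3 replicates per group is RNA from pericarp, sequenced as an immunoprecipitated (IP) library made with an antibody against m6A and as an input library. The 2 groups differ in genotype and by 3 days of age, and the effects of genotype and age cannot be told apart in this comparison. Wild-type fruit at 42 DPA, at the breaker stage, was used where the likeness to either wild-type age was described. Per the study's methods the replicates are independent and each is RNA of a pool of many fruits, so the spread between them is one between pools and not between single fruits.

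m6A is a methyl group on an adenosine inside an mRNA. It is written by a methyltransferase complex, removed by demethylases of the AlkB family (ALKBH) and read by proteins that act on the stability, splicing or translation of the mRNA. In plants and animals it lies mostly near the stop codon and in the 3′ untranslated region (UTR). In tomato, ripening runs through the hormone ethylene, a set of transcription factors, carotenoid synthesis and a loss of DNA methylation by DEMETER-like DNA demethylases, among them *SlDML2*.

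The 6 peak lists were merged wherever peaks shared at least 1 bp, which gave 11819 regions of 12119 over all 9 lists of the series. Of these, 8267 regions held a peak in all 6 lists and lay over 8701 genes, 485 held a peak in the 3 *Cnr* lists and in no list of wild type at 39 DPA, and 449 held a peak in the 3 lists of wild type at 39 DPA and in no *Cnr* list. The value of a region in a list is the highest fold enrichment of its summits, that is, IP fragments over the background expected from the input. This value was compared on the log2 scale, both as deposited and after each list was centred on its own median. A region was called when the groups differed at least 1.5-fold and limma gave a p-value below 0.05 after Benjamini-Hochberg (BH) adjustment.

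By m6A-IP-qPCR the study compared 3 transcripts of ripening genes between *Cnr* and wild type, those of *SlDML2*, *FUL2* and *NR*. *FUL2* encodes a MADS-box transcription factor of ripening and *NR* an ethylene receptor. The primers of all 3 are shown because they mark the mRNAs whose peaks are described first among the ripening genes. They are given 5′ to 3′ in lower case, forward and then reverse, with nothing in capitals since no position within the peak was looked up.
SlDML2 forward: cctgaacatagctaccc
SlDML2 reverse: ttaccgactggaatagaact
FUL2 forward: caaagcaggttaaggaaaggg
FUL2 reverse: gagatgatcatgactctgttgctc
NR forward: gtcatcctcctgaaatgttcc
NR reverse: ccagtatctctaacctggacac

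The 6 lists held between 9743 and 10407 peaks. The background cannot fall below a floor that MACS sets for each library, which was 44.6 to 51.1 fragments, and 40.9 to 48.8% of the summits of a list lay on it. Within a list, the fold enrichment on the floor follows the IP fragments alone. Between lists the floor differed, at 50.7, 51.1 and 49.7 fragments in wild type at 39 DPA and 48.8, 44.9 and 44.6 in *Cnr*. A lower floor gives a higher enrichment for the same number of IP fragments. *Cnr* replicate 2 stood apart from the other *Cnr* lists, with a median enrichment nearer to that of the wild type. Of 5 genes of the pericarp epidermis fixed as markers, 1 had a region, the cutin gene *CD2* (Solyc01g091630), which was not called. *ACTIN* (Solyc03g078400), the gene used as a reference in the study's qPCR, had a peak in *Cnr* replicate 2 alone, at 1.34-fold.

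Shared regions were on the whole more enriched in *Cnr*. The median fold enrichment over the 8267 regions was 6.30, 6.30 and 6.94 in wild type at 39 DPA and 8.57, 7.06 and 9.06 in *Cnr*. All 3 *Cnr* lists lay above all 3 wild-type lists, with replicate 2 just above the highest of them. As log2 values the list medians averaged 2.70 ± 0.081 (SD, n = 3) in wild type and 3.03 ± 0.189 (SD, n = 3) in *Cnr*, and the exact two-sided permutation p of 0.1 is the smallest that 3 against 3 lists allow. The median difference of a region was 0.31 on the log2 scale, or 1.24-fold, with quartiles of 0.09 and 0.52, and 6788 regions (82.1%) were higher in *Cnr* by any amount.

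**Figure D1:**
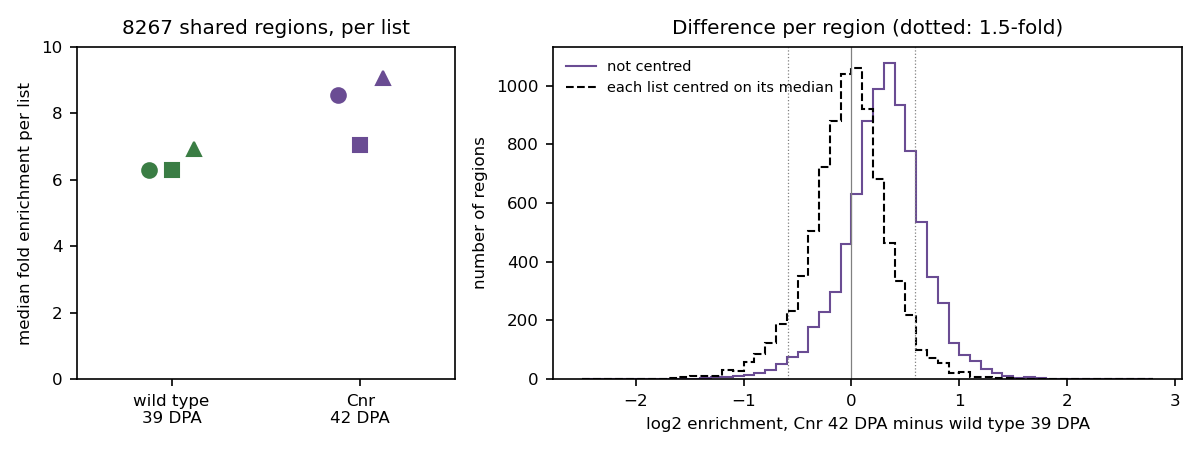
Left, the median fold enrichment of each list over the 8267 shared regions by group, with symbols for the replicates. Right, the number of regions by their log2 difference, *Cnr* minus wild type at 39 DPA, as deposited (solid) and after centring each list on its median (dashed), with dotted lines at 1.5-fold. The solid curve sits to the right of 0, with a median of 0.31, and centring moves the curve to about 0.

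On the deposited scale 1733 regions (21.0% of those tested) were called by limma with BH-adjusted p, of which 1585 (19.2%) rose and 148 (1.79%) fell in *Cnr*. After centring, 906 (11.0%) were called, of which 326 (3.94%) rose and 580 (7.02%) fell. The split between rises and falls thus turned with the scale. All of the 326 regions that rose after centring had also risen on the deposited scale, and all of the 148 that fell on the deposited scale also fell after centring. Centring lowers every difference by the same amount, so as to size this nesting was fixed in advance. The values of all *Cnr* lists lay above all wild-type values in 3797 regions (45.9%), and below them in 529 (6.4%). Without *Cnr* replicate 2, 2575 regions rose and 155 fell on the deposited scale.

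The shift was seen in each *Cnr* list, and least in replicate 2. Against the wild-type mean, *Cnr* replicate 1 was higher in 85.0% of the regions with a median of 0.38, replicate 2 in 63.3% with a median of 0.11, and replicate 3 in 86.7% with a median of 0.46. It was also seen on every chromosome. The median difference of the 12 chromosomes and the unplaced sequence lay between 0.21 and 0.33, and the share of tested regions that rose between 15.8 and 24.0%.

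The rise of a region in *Cnr* went along with a lower background in many cases. The background is the denominator of the called enrichment, so choosing rises favours a lower background and choosing falls a higher one. Backgrounds are given here as multiples of each list's floor. Among the 559 regions that rose and lay above the floor in all 6 lists, the background was lower in *Cnr* in 516 (92.3%), against 54.4% of all 4039 such shared regions. In these 559 regions the median differences were 0.70 for the enrichment, −0.52 for the background and 0.09 for the IP fragments, all on the log2 scale. The IP fragments are not scaled to the floor, so these medians need not add up. Another 723 (45.6%) of the regions that rose lay on the floor in all 6 lists, where the input gives no reading. So did 66 (44.6%) of those that fell and 2743 (33.2%) of all shared regions. In these 2743 regions the median differences were 0.36 for the enrichment and 0.23 for the IP fragments on the log2 scale, with lower floors in *Cnr*. In the 39 regions that fell and lay above the floor, the background was higher in *Cnr* in all but 4 (10.3%), with a median of 0.97. Input coverage reflects transcript level, and the part of that level in these differences was not tested. In bulk pericarp, fewer cells of a type and less RNA per cell cannot be told apart.

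The 10 largest rises were taken among called regions in which the 3 *Cnr* values lay above the 3 wild-type values. They ranged from 1.67 to 2.63 on the log2 scale. All 10 were also called after centring. By position, 5 were 3′ UTR regions, 4 spanned the stop codon and 1 was intronic, and 3 overlapped more than 1 gene.

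The largest rise was in the 3′ UTR of Solyc02g092537, a gene the tables at hand do not describe, at chr2:54238277-54238866 (SL3.0). Its fold enrichment was 3.83, 4.54 and 5.29 in wild type at 39 DPA and 30.6, 23.3 and 30.8 in *Cnr*. Every *Cnr* list was several times above every wild-type list, by 2.63 on the log2 scale (SE 0.161, BH-adjusted p in limma 9.27e-07). The region lay on the floor in all 6 lists, and its IP fragments rose by 2.51 on the log2 scale. Wild type at 42 DPA had 8.20, 7.57 and 7.13, between the groups compared.

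Solyc09g075210, annotated with a response to stress, followed at chr9:67415062-67415444 in an intron. Its enrichment was 2.31, 2.08 and 2.13 in wild type at 39 DPA and 11.2, 8.96 and 12.7 in *Cnr*, a rise of 2.32 (SE 0.151, adjusted p in limma 1.01e-06). The groups were far apart, and both parts of the ratio moved. Its background, as a multiple of the floor, was 2.64, 2.41 and 2.65 in wild type and 1.09, 1.11 and 1.08 in *Cnr*, and its IP fragments rose by 0.98 on the log2 scale.

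Solyc11g008280, whose product is annotated as a serine-type carboxypeptidase, an enzyme that removes residues from the end of proteins, rose by 2.13 over its stop codon at chr11:2506052-2506426. Its values were 4.39, 4.74 and 4.93 in wild type at 39 DPA and 22.0, 15.1 and 25.7 in *Cnr*. Of the genes with a kinase annotation, Solyc09g007280 had 3.27, 3.03 and 3.61 in wild type at 39 DPA and 12.0, 8.99 and 12.7 in *Cnr*. Among the 10 rises it was the one with no peak in wild type at 42 DPA. Solyc01g094660, annotated as a protein kinase with ubiquitin transferase activity, which tags proteins for breakdown, had 6.56, 7.04 and 7.91 in wild type and 24.9, 17.6 and 26.7 in *Cnr*.

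For 1 of the 10 rises the IP fragments did not rise. Solyc10g074790, of the auxin efflux carrier family, which moves the hormone auxin out of cells, had an enrichment of 2.59, 2.69 and 2.76 in wild type and 9.90, 7.82 and 10.4 in *Cnr* at chr10:58573408-58573776. Its background fell from 7.19, 7.21 and 7.29 to 1.60, 1.67 and 1.61 times the floor, and its IP fragments fell by 0.47 on the log2 scale.

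**Figure D2:**
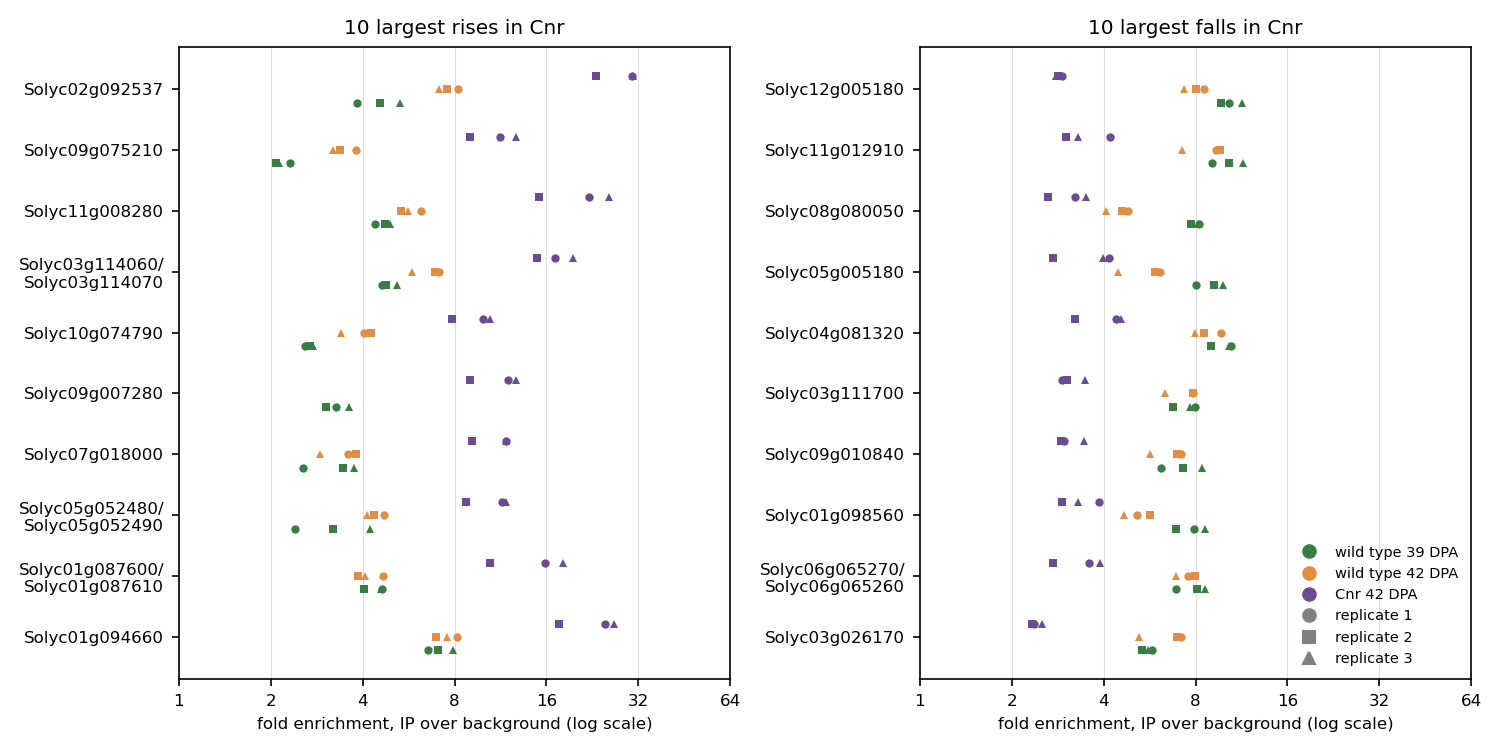
Fold enrichment (log scale) of the 10 regions with the largest rise (left) and the 10 with the largest fall (right) in *Cnr* among called regions whose groups do not overlap, with each of the 9 lists as a symbol and the groups by colour. By this choice the 3 *Cnr* lists lie apart from the 3 lists of wild type at 39 DPA in every row. The mean of wild type at 42 DPA lies between the groups in 8 rises and 9 falls.

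The 10 largest falls lay over the stop codon and ranged from 1.21 to 1.87 on the log2 scale. They were likewise taken among called regions whose groups do not overlap. All were called after centring too, where every difference is lower by the same amount, so a fall can only grow in size.

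Solyc12g005180, a chloroplast lipocalin, a small carrier protein of lipids, fell most, at chr12:123993-124368. Its values were 10.3, 9.71 and 11.4 in wild type at 39 DPA and 2.93, 2.83 and 2.79 in *Cnr* (SE 0.132, BH-adjusted p in limma 2.09e-06), and wild type at 42 DPA had 8.51, 8.04 and 7.33. The *Cnr* values were low and close together, and both wild-type ages were high. Its background was 1.24, 1.27 and 1.27 times the floor in wild type and 10.6, 10.7 and 10.8 times in *Cnr*, while its IP fragments rose by 1.06 on the log2 scale.

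Solyc11g012910, annotated as a gamma-glutamylcyclotransferase of glutathione breakdown, had 9.04, 10.3 and 11.5 in wild type and 4.20, 3.01 and 3.29 in *Cnr*, a fall of 1.56. Solyc04g081320, a chloroplast protein disulfide isomerase related to LQY1, which in *Arabidopsis* takes part in the repair of photosystem II, had 10.4, 8.99 and 10.3 in wild type and 4.40, 3.22 and 4.56 in *Cnr*, a fall of 1.30. In both, wild type at 42 DPA was much closer to wild type at 39 DPA than to *Cnr*. Solyc08g080050 and Solyc01g098560, the latter described as a sugar facilitator protein, lay on the floor in all 6 lists and fell by 1.37 and 1.22. The F-box protein gene Solyc03g026170 had 5.76, 5.33 and 5.57 in wild type and 2.37, 2.34 and 2.51 in *Cnr*, and its background was 2.16 higher in *Cnr* on the log2 scale.

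Among 8 DNA demethylase and methyltransferase genes with a tested region, 1 rose and none fell on the deposited scale, where 19.2% of all tested regions rose and 1.79% fell, with a median difference of 0.10 against 0.31 for all regions. *SlDML2* (Solyc10g083630), which removes 5-methylcytosine during ripening, was the gene that rose. Its region over the stop codon, chr10:63531345-63531681, had 3.71, 3.39 and 3.99 in wild type at 39 DPA and 7.07, 5.43 and 8.09 in *Cnr*. All *Cnr* values were above all wild-type values, by 0.88 on the log2 scale (SE 0.159, adjusted p in limma 0.00106), and centring brought the difference to 0.55 and below the fold minimum. Its background was 5.62, 5.72 and 5.54 times the floor in wild type and 3.22, 3.54 and 2.96 times in *Cnr*, and the IP fragments differed by −0.05.

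The coding sequence of *SlDML2* behaved otherwise than its stop codon. Its region at chr10:63535961-63536217 had 2.55, 2.51 and 2.63 in wild type at 39 DPA and 2.34, 2.43 and 2.48 at 42 DPA, with no peak in *Cnr*. The region at chr10:63534061-63534282 had 1.77, 1.75 and 1.68 at 39 DPA and 1.70, 1.59 and 1.90 at 42 DPA, again with no peak in *Cnr*. A further coding region had 2.04, 1.88 and 2.26 at 39 DPA and a peak of 1.46 in *Cnr* replicate 2 alone. Both wild-type ages thus carried weak coding peaks where 2 or 3 *Cnr* lists had none.

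*SlDML3* (Solyc11g007580) had 6.56, 6.56 and 7.81 in wild type and 11.9, 8.43 and 11.2 in *Cnr*. Its groups did not overlap, but the difference of 0.58 (adjusted p in limma 0.00994) was just under the fold minimum, and it passed without *Cnr* replicate 2 or without wild-type replicate 3. Solyc11g030600, annotated as a methyltransferase that binds chromatin, had 9.50, 12.2 and 11.5 in wild type and 9.33, 6.99 and 11.6 in *Cnr*. These groups overlapped, with a difference of −0.27, and the region fell only after centring, at −0.60. Solyc04g005250, annotated with DNA methylation, had 4.29, 4.05 and 3.98 at 39 DPA in a region shared with its neighbour Solyc04g005255 and no peak in *Cnr*.

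Of the ripening transcription factors, 3 of 8 tested regions rose and none fell, where 19.2% of all tested regions rose and 1.79% fell, and the median was 0.39. After centring 1 rose and 1 fell, where 3.94% of all tested regions rose and 7.02% fell. *FUL2* (Solyc03g114830) had 5.26, 4.48 and 4.93 in wild type at 39 DPA and 8.17, 7.63 and 8.01 in *Cnr* over its stop codon, at chr3:66183198-66183536. The *Cnr* values were all higher, by 0.70 (SE 0.133, adjusted p in limma 0.00142), and the difference of 0.37 after centring was not called. Its background was 4.15, 4.25 and 4.27 times the floor in wild type and 1.57, 1.61 and 1.58 times in *Cnr*.

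Its neighbour *MADS1* (Solyc03g114840), another MADS-box factor, rose on both scales. It had 8.42, 7.46 and 8.27 at 39 DPA, 17.9, 12.7 and 19.5 in *Cnr* and 13.7, 13.6 and 12.1 at 42 DPA. The difference was 1.03 (SE 0.163, adjusted p in limma 0.000473) as deposited and 0.70 after centring, and wild type at 42 DPA lay close to *Cnr* replicate 2. Its background fell from 4.05 times the floor in wild type replicate 1 to the floor in all *Cnr* lists.

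Solyc02g071730, annotated with DNA binding at regulatory regions, had the highest enrichment of the list, 19.7, 12.4 and 18.5 in wild type and 31.9, 18.9 and 38.7 in *Cnr*. The groups overlapped, and its rise of 0.79 (adjusted p in limma 0.0156) was lost after centring, without wild-type replicate 2 and without *Cnr* replicate 3. Solyc07g055920, with the same annotation, had 1.99, 1.95 and 1.99 in wild type and 1.39, 1.79 and 1.54 in *Cnr* within its coding sequence. Its difference there of −0.34 was called only after centring, at −0.67. Over its stop codon it had 10.8, 12.4 and 11.7 in wild type and 15.1, 12.2 and 17.1 in *Cnr*, a difference of 0.34 that was not called on either scale. Solyc04g009440, a DNA-binding regulator of transcription by its annotation, had 2.97, 2.65 and 2.94 in wild type at 39 DPA, in a region it shares with Solyc04g009435, and no peak in *Cnr* or in wild type at 42 DPA.

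**Figure D3:**
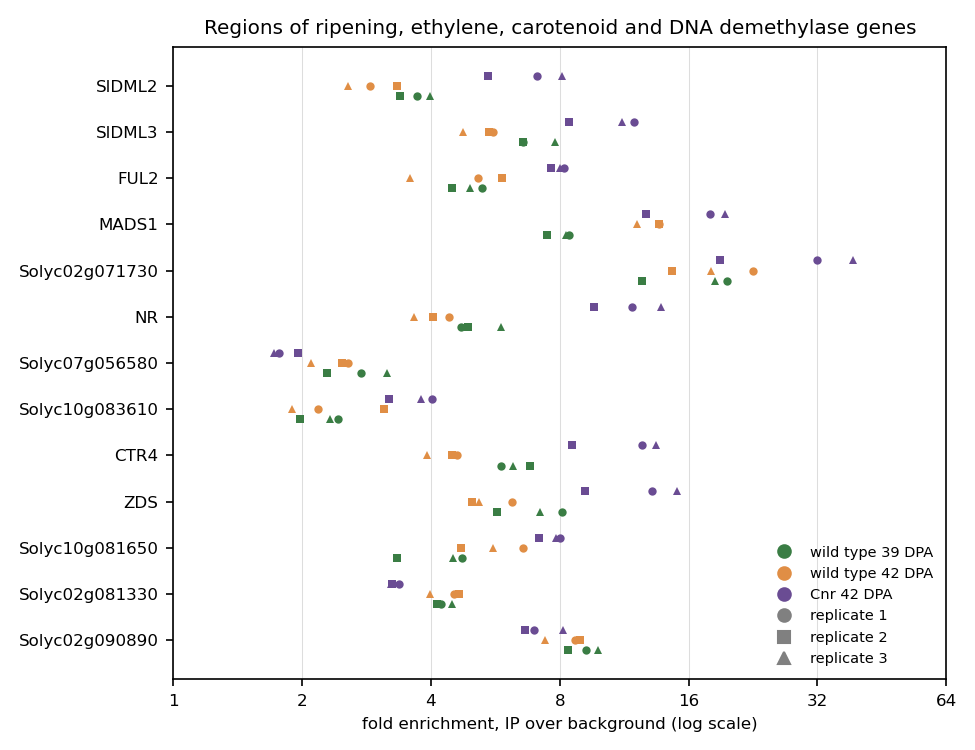
Fold enrichment (log scale) in each of the 9 lists for 13 regions of the gene lists that were called on at least 1 scale or lie just under the fold minimum, with symbols for replicates and colours for groups; identifiers are used where no name is at hand. The *Cnr* lists sit to the right of wild type at 39 DPA for *SlDML2*, *FUL2*, *MADS1* and *NR*, and to the left for Solyc07g056580 and Solyc02g081330. Also called lower after centring alone, but not shown, were the coding region of Solyc07g055920, the region of Solyc11g030600 and that over Solyc03g082420.

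Ethylene is perceived by receptors that act through kinases of the CTR1 type, which hold the response back in its absence. Of the 12 tested regions of receptors and signalling genes, 3 rose and none fell, a share of rises near the 19.2% of all tested regions, with a median of 0.27. After centring 1 rose and 1 fell, where 3.94% of all tested regions rose and 7.02% fell. *NR* (Solyc09g075440) had 4.69, 4.87 and 5.83 at 39 DPA, 11.8, 9.59 and 13.8 in *Cnr* and 4.41, 4.05 and 3.66 at 42 DPA, at chr9:67559705-67560165. Both wild-type ages were low and all 3 *Cnr* lists high. The rise of 1.18 (SE 0.158, adjusted p in limma 0.00017) was called after centring too, at 0.85. The region also overlaps Solyc09g075430, and its background was 9.08, 9.12 and 8.69 times the floor in wild type and 4.75, 4.84 and 4.27 times in *Cnr*.

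The CTR1-like protein kinase-4 gene (Solyc10g085570) had 5.84, 6.81 and 6.23 in wild type and 12.4, 8.54 and 13.4 in *Cnr*, on the floor in all 6 lists. It rose by 0.84 (adjusted p in limma 0.00204), and by 0.51 after centring, which was below the fold minimum. Solyc10g083610, annotated as a protein kinase, had 2.43, 1.98 and 2.33 in wild type and 4.02, 3.20 and 3.80 in *Cnr*. This was in a 3′ UTR region it shares with Solyc10g083600, and centring brought the rise of 0.71 to 0.38. The CTR1-like protein kinase-3 gene (Solyc09g009090) differed by 0.47 over its stop codon and was not called.

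The list was not uniform. Solyc07g056580, annotated as a phosphorelay sensor kinase, the class to which ethylene receptors belong, had 2.75, 2.28 and 3.16 in wild type and 1.77, 1.95 and 1.72 in *Cnr*. The difference of −0.58 (adjusted p in limma 0.00768) was just under the fold minimum as deposited and was called at −0.91 after centring, and its background was 2.23 higher in *Cnr* on the log2 scale. The receptor-type genes Solyc12g011330 and Solyc06g053710 differed by −0.01 and 0.03, with overlapping groups. Of the 10 ethylene synthesis and response genes, 1 had a region, a peak in *Cnr* replicate 2 alone among the 6 lists, so the peaks say little of ethylene production.

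In carotenoid and abscisic acid synthesis, 2 of 8 tested regions rose and none fell as deposited, while none rose and 2 fell after centring, and the median difference was 0.01. Over all tested regions 19.2% rose as deposited, and 3.94% rose and 7.02% fell after centring. The gene of zeta-carotene desaturase, *ZDS* (Solyc01g097810), a step towards lycopene, had 8.10, 5.72 and 7.19 in wild type and 13.1, 9.18 and 15.1 in *Cnr*. It rose by 0.82 (SE 0.186, adjusted p in limma 0.00412). Solyc10g081650, annotated with carotenoid synthesis, had 4.72, 3.34 and 4.50 in wild type and 8.03, 7.15 and 7.85 in *Cnr*, a rise of 0.89 (adjusted p in limma 0.000785). Both rises fell below the fold minimum after centring, at 0.49 and 0.56.

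The 2 that fell after centring were Solyc02g081330 and Solyc02g090890. Solyc02g081330, annotated as a farnesyl-diphosphate farnesyltransferase, had 4.22, 4.14 and 4.48 in wild type and 3.37, 3.24 and 3.22 in *Cnr*, a difference of −0.38 as deposited and −0.71 after centring, on the floor throughout. Solyc02g090890, annotated to the chloroplast, had 9.22, 8.38 and 9.80 in wild type and 6.97, 6.64 and 8.15 in *Cnr*, and differed by −0.66 after centring. Of the same list, Solyc12g098710 had 3.07, 3.45 and 3.76 in an intronic region in wild type at 39 DPA, and no peak in *Cnr* or in wild type at 42 DPA. Of the 9 genes of cell wall softening, 1 had a region and none was tested.

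The ALKBH genes, whose products include the m6A demethylases, gave no call in 4 tested regions on either scale, and their median difference was 0.00. Of all tested regions 21.0% were called as deposited and 11.0% after centring. Of the 7 regions of these genes, 2 had a peak in all 3 *Cnr* lists and in no list of wild type at 39 DPA. Among all merged regions this share was 4.1%. *SlALKBH2* (Solyc01g104130), which the study examined as an m6A demethylase, had 4.18, 3.40 and 4.39 in *Cnr* over its stop codon at chr1:92495539-92495772, and no peak in either wild-type age. *SlALKBH6* (Solyc04g045590) had 4.28, 2.74 and 4.80 in *Cnr* over its stop codon and 3.03 in wild type at 42 DPA replicate 1, besides a 3′ UTR region that differed by −0.04. *SlALKBH4* (Solyc02g083960) had 4.52, 4.75 and 4.16 in *Cnr* and 2.23 in wild type at 39 DPA replicate 3 alone. *SlALKBH1*, *SlALKBH3* and *SlALKBH5* differed by 0.26, −0.12 and 0.05, with overlapping groups.

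Of 15 photosynthesis and chlorophyll breakdown genes, 4 regions were tested and none was called on either scale. Over all tested regions 21.0% were called as deposited and 11.0% after centring. Solyc10g007690, annotated with light harvesting, had 3.38, 3.27 and 3.26 at 39 DPA and 4.65, 5.62 and 3.69 at 42 DPA, with no peak in *Cnr*. Of the heat shock list, 2 regions were tested, and 1 of them fell after centring alone, where 7.02% of all tested regions fell. That region, at chr3:53779804-53780326, overlaps Solyc03g082395, Solyc03g082400, Solyc03g082410 and Solyc03g082420, and had 15.8, 19.5 and 17.9 at 39 DPA, 13.9, 12.2 and 14.2 in *Cnr* and 3.88, 4.09 and 3.72 at 42 DPA. *Cnr* and the younger wild type were thus both high there and the older wild type low, with differences between *Cnr* and 39 DPA of −0.40 as deposited and −0.73 after centring.

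Peaks found on 1 side only were mostly weak. The 485 *Cnr*-only regions (4.1% of all merged regions) lay over 463 genes and had a median fold enrichment of 3.42, with 147 at a mean of 4 or more. The 449 regions found only in wild type at 39 DPA (3.8%) lay over 441 genes and had a median of 2.65, with 71 at 4 or more. A missing peak means that none passed the false discovery rate of 0.05 in that list, which by itself says nothing of whether the mRNA was present. Of the *Cnr*-only regions 72.4% lay on the floor in all 3 *Cnr* lists, against 40.1% of the shared regions in the same lists. Of the wild-type-only regions it was 43.0%, against 40.8%.

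The strongest *Cnr*-only region lay over Solyc06g068590 and Solyc06g068600, a kinase and a phosphate transporter by annotation, with 13.1, 10.2 and 14.6 in *Cnr*. Solyc03g121940, for a subunit of the NF-Y transcription factor, had 11.7, 10.5 and 11.2 and no peak at 42 DPA in the wild type either. Solyc12g070080, annotated as an amidase, had 13.4, 8.86 and 13.8 in *Cnr* and 4.15, 3.99 and 3.41 in wild type at 42 DPA. Solyc06g071580, of the MORC family, had 10.9, 8.67 and 9.71 in *Cnr* and 3.03, 3.37 and 2.20 at 42 DPA. Of the 10 strongest, 5 had a peak in all lists of wild type at 42 DPA and 4 in none. Of all 485 *Cnr*-only regions, 51 had a peak in all of those lists and 364 in none.

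In the other direction, Solyc05g056270, annotated with fatty acid synthesis, had 8.14, 10.7 and 10.3 at 39 DPA and 8.77, 10.1 and 7.71 at 42 DPA, with no peak in *Cnr*. Solyc02g091560, for serine hydroxymethyltransferase, an enzyme of photorespiration and of the supply of single carbon units, had 7.46, 8.09 and 8.35 at 39 DPA and 8.15, 8.34 and 7.20 at 42 DPA. Solyc09g083130, for an acylamino-acid-releasing enzyme, had 7.87, 8.05 and 8.76 at 39 DPA and 3.45, 3.87 and 2.91 at 42 DPA. Of the 10 strongest wild-type-only regions, 9 were also in all lists of wild type at 42 DPA. The exception lay over Solyc03g026200 and Solyc03g026210 and had 6.63, 8.57 and 8.64 at 39 DPA. Of all 449 wild-type-only regions, 196 were in all lists of wild type at 42 DPA and 133 in none.

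The gene parts differed between the sets. Of the 7987 shared regions over a gene, 69.5% lay over the stop codon, that is, began within the coding part and ended past it, and 22.9% in the 3′ UTR. Of the 409 *Cnr*-only regions over a gene, 50.9% spanned the stop codon, 32.5% were 3′ UTR regions and 2.45% were within the coding sequence. Of the wild-type-only regions, 28.8% (117 of 406) lay within the coding sequence, against 2.43% of the shared regions. These coding peaks had a median of 2.03-fold, and 71 of the 117 had a shared region elsewhere in the same gene. Gene parts are a description of these sets, with no test between them.

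**Figure D4:**
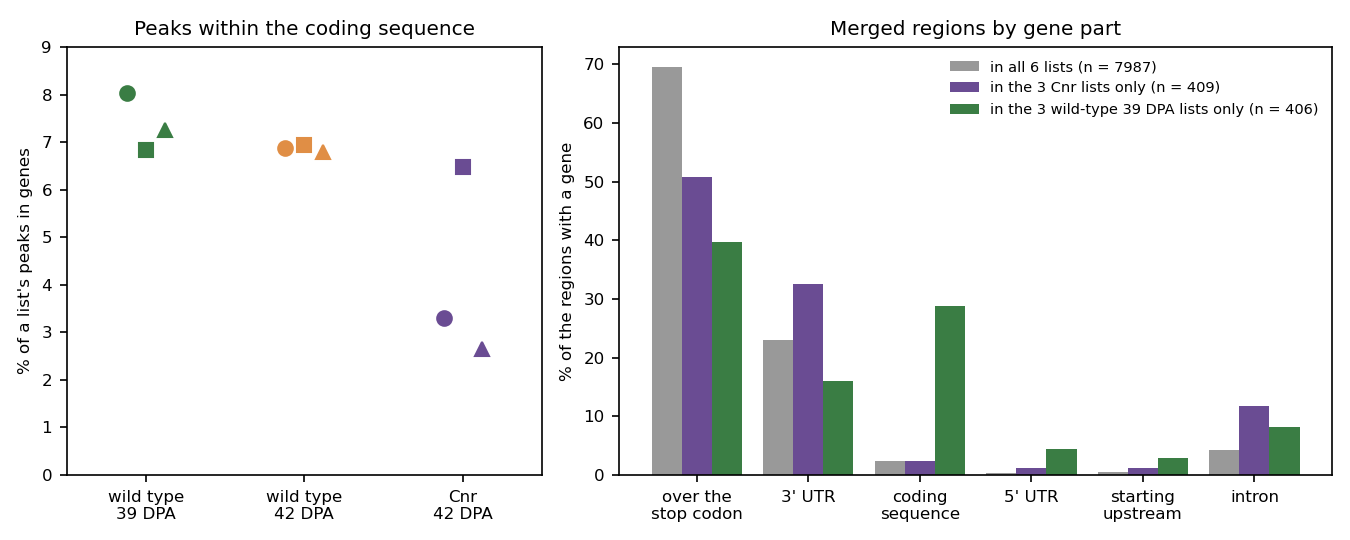
Left, the share of each list's peaks in genes that lie within the coding sequence, in percent, by group with symbols for replicates. Right, the share of merged regions by gene part for regions in all 6 lists (n = 7987), in the 3 *Cnr* lists only (n = 409) and in the 3 lists of wild type at 39 DPA only (n = 406). *Cnr* replicates 1 and 3 sit at 3.30 and 2.64%, while replicate 2, at 6.48%, sits just under the wild-type lists.

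In single lists, coding peaks made up 8.03, 6.83 and 7.26% of the peaks in wild type at 39 DPA and 3.30, 6.48 and 2.64% in *Cnr*. The *Cnr* lists were all lower, but replicate 2 was near the wild type, and the means of 7.38 ± 0.608 and 4.14 ± 2.05% (SD, n = 3) gave an exact two-sided permutation p of 0.1, the smallest possible. Wild type at 42 DPA had 6.87, 6.94 and 6.80%. The share over the stop codon was 63.3 ± 1.40% in wild type at 39 DPA and 65.1 ± 0.923% in *Cnr*, and that in the 3′ UTR 20.3 ± 0.544 and 22.9 ± 1.99%, each with an exact permutation p of 0.2 (n = 3 per group).

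*Cnr* replicate 2 decided how many coding peaks counted as wild-type only. Of the 987 coding regions, 293, 636 and 229 had a peak in *Cnr* replicates 1, 2 and 3, against 841, 651 and 734 in wild type at 39 DPA. Of the 433 regions with a peak in all 3 lists of wild type and in a single *Cnr* list, that list was replicate 2 in 384, and 56.3% of those over a gene were coding. Without replicate 2 the wild-type-only regions numbered 833, of which 41.8% were coding.

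The differences of shared regions by gene part are likewise a description. The 194 shared coding regions had a median difference of 0.04, with 18 rises and 14 falls as deposited, against 0.20 for the 5′ UTR, 0.31 for the stop codon, 0.34 for regions of the 3′ UTR and 0.34 for introns. After centring the coding median was −0.29, with 4 rises and 63 falls. The 45 regions that start upstream of the gene had a median of −0.09 with 1 rise and 4 falls as deposited, and of −0.42 with 0 rises and 14 falls after centring. Over all tested regions 19.2% rose and 1.79% fell as deposited, and 3.94% rose and 7.02% fell after centring. Coding peaks were weak. Over the coding regions with a peak in a given list, the median fold enrichment was 2.18, 2.17 and 2.33 in wild type at 39 DPA. In *Cnr* it was 2.78, 2.21 and 3.65. These medians rest on 841, 651 and 734 regions in wild type and on 293, 636 and 229 in *Cnr*. They therefore do not compare the same regions. Without *Cnr* replicate 2 the median difference of the shared coding regions was 0.11, against 0.42 over the stop codon.

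In group medians, *Cnr* differed slightly less from the younger than from the older wild type on both scales. The balance of rises and falls depended on the scale, and as deposited the nearer age depended on the regions considered. Over the 7836 regions with a peak in all 9 lists, *Cnr* had as deposited 1478 rises and 139 falls against wild type at 39 DPA, and 1962 and 149 against wild type at 42 DPA. After centring the balance turned, to 294 rises and 549 falls against 39 DPA and to 416 and 616 against 42 DPA. The median absolute difference was 0.35 from 39 DPA and 0.39 from 42 DPA as deposited, and 0.21 and 0.23 after centring. Wild type at 39 DPA was called higher than at 42 DPA in 236 regions and lower in 122 as deposited, and in 158 and 174 after centring, with a median absolute difference of 0.16 on both scales. By these medians both wild-type ages were closer to each other than *Cnr* was to either. The comparisons share libraries, so that no test between them was made.

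**Figure D5:**
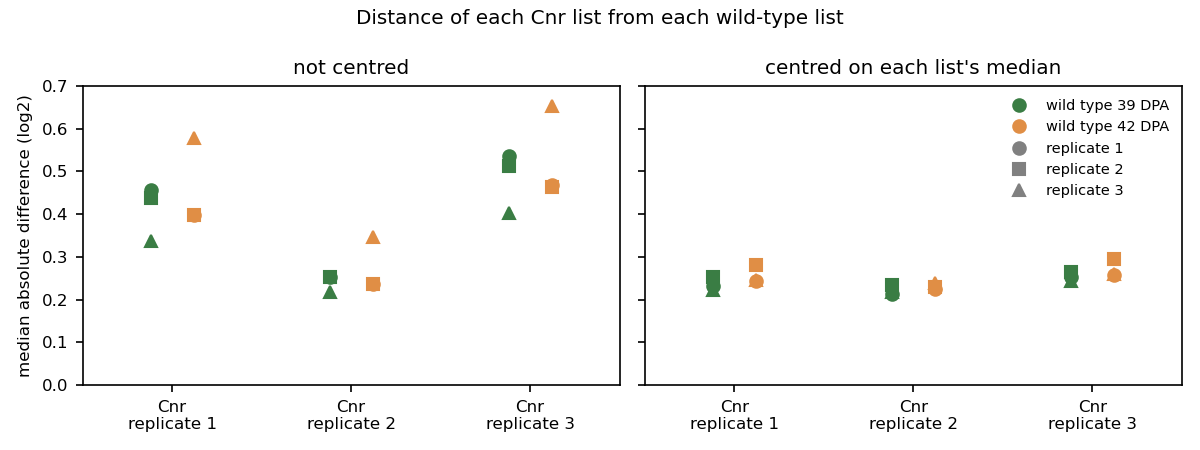
Median absolute log2 difference over 7836 regions between each *Cnr* list and each wild-type list, as deposited (left) and after centring each list on its median (right), with the wild-type age by colour and its replicate by symbol. As deposited the 2 ages are interleaved, with wild-type replicate 3 nearest to *Cnr* at 39 DPA and farthest at 42 DPA, and after centring all distances lie between 0.213 and 0.295.

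List by list, *Cnr* was not clearly nearer to either age. As deposited, *Cnr* replicate 1 was at a median absolute difference of 0.457, 0.438 and 0.337 from the lists at 39 DPA and 0.398, 0.398 and 0.579 from those at 42 DPA. *Cnr* replicate 3 was at 0.535, 0.512 and 0.403 from 39 DPA and 0.469, 0.464 and 0.653 from 42 DPA. *Cnr* replicate 2 was at 0.252, 0.253 and 0.218 from 39 DPA and 0.236, 0.237 and 0.346 from 42 DPA. From *Cnr* replicates 1 and 3 it was at 0.290 and 0.368, farther than from any list at 39 DPA. The ranges of the ages overlapped for every *Cnr* list. After centring, *Cnr* replicate 1 was at 0.232, 0.253 and 0.222 from 39 DPA and 0.243, 0.281 and 0.246 from 42 DPA, and lists of 1 group were 0.075 to 0.166 apart.

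Region by region, a small majority was nearer to the younger wild type. The 3 *Cnr* lists were nearer to the mean at 39 DPA in 57.3, 56.0 and 57.5% of the 7836 regions as deposited, and in 54.4, 53.1 and 53.2% after centring. Where wild type at 39 DPA was at least 1.5-fold above 42 DPA without overlap (230 regions), it was 89.6, 78.7 and 90.9%, and where 42 DPA was above (121 regions), 29.8, 43.8 and 25.6%. As deposited, *Cnr* was thus mostly nearer to whichever age was higher. After centring the shares were 67.5, 66.9 and 65.0% of 157 regions higher at 39 DPA and 58.0, 54.0 and 60.3% of 174 regions higher at 42 DPA. These shares are a description, with no test, because the regions were chosen on the same wild-type lists.

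The presence of peaks gave a like picture. Of the regions merged over all 9 lists, 364 had a peak in all 3 *Cnr* lists and in no wild-type list, 196 in both wild-type ages and in no *Cnr* list, 161 in wild type at 39 DPA and *Cnr* but not at 42 DPA, and 51 in wild type at 42 DPA and *Cnr* but not at 39 DPA. Regions in which *Cnr* stood alone were thus more numerous than those it shared with either age alone, and it shared more with the younger than with the older fruit. The lists at 42 DPA were the shorter ones in the wild type, with 9246 to 9946 peaks against 9743 to 10407 at 39 DPA.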

How the data were processed

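Total RNA of pericarp was fragmented after mRNA isolation, immunoprecipitated with an antibody against m6A and sequenced beside its input. Per the study's methods and the submitters' processing notes, the authors checked the reads with FastQC 0.11.7, trimmed them with cutadapt 1.16 and Trimmomatic 0.30, aligned them to SL3.0 with BWA (stated as version 0.30), kept reads with a mapping quality of at least 13, and called peaks in each IP library against its input with MACS at a false discovery rate of 0.05. The deposited fold enrichment is a ratio the authors made with MACS, of IP fragments to background, each plus 1. The deposited −log10 p-value and −log10 q-value come from the same numbers and were also made by the authors in MACS. The authors' annotation, from PeakAnnotator and ITAG3.2, gave genes, gene parts and GO terms.

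For each summit the deposited ratio and p-value together give back the IP fragments and the background, and a background within 0.1 fragments of a list's most frequent one was taken as on the floor. The IP numbers so recovered were within 0.1 of a whole number for at least 99.7% of the summits of each list. Coordinates are given 1-based, as the deposited start plus 1. Sequencing depth was not used, and a summit had a median of 392 to 500 IP fragments over the 6 lists. Regions with a peak in all 6 lists were tested on log2 fold enrichment with limma 3.58.1 in R 4.3.3, uncentred, with p-values adjusted over all 8267 regions; standard errors lay between 0.127 and 0.560 with a median of 0.148, so they rest largely on a spread pooled over regions, and a shift common to a list enters all its regions. The script was tested on simulated data. Single values per list were compared by exact permutation tests. All else was done in Python 3.11.15 (scipy 1.17.1, pandas 2.3.3, numpy 2.4.6).

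Named are the 10 largest rises and falls whose groups do not overlap, the strongest regions of 1 side only, and members of 10 gene lists with a region, with values for those called or of 1 side only and for *SlDML2*, *FUL2* and *NR*. Others with values were chosen after these were seen. The members, lists and tests were chosen with earlier results of these data known. The lists were compiled by identifier from general knowledge of tomato, and an identifier not described in the files or the study's tables is given with the GO annotation of the files only. Alternatives varied the centring, merging, filters, thresholds, statistic, replicate block and replicates used. No genome of this build was used here, so peak sequences and motifs were not analysed, and no seed marker was looked up.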

Additional observations from a re-analysis of the deposited data

How the results depend on the processing

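The calls depended on the scale and on the fold minimum. Rises and falls numbered 326 and 580 after centring on the list medians, 403 and 442 after quantile normalization, 3334 and 344 at a fold minimum of 1.2, and 231 and 28 at 2. In 2 alternatives chosen after seeing the data they were 559 and 39 over the regions above the floor in all 6 lists, and 411 and 700 with *Cnr* replicates 1 and 3 alone after centring. Leaving out each list in turn gave 1139 to 2575 rises and 127 to 174 falls, 465 to 833 wild-type-only regions and 500 to 706 *Cnr*-only regions, each highest count save that of the falls without *Cnr* replicate 2. The other merging, filter, summit and statistic alternatives kept these counts within 1.5 times. The replicate numbers do not pair the lists (Pearson's r of deviations −0.06, 0.03 and 0.15 for the same number), and a replicate block gave 1590 rises and 148 falls, or 328 and 584 with centring, and changed no call of a named region. Of 67 named regions, 44 kept direction and call after centring. There, 7 lost and 6 gained a call, and 10 small differences turned sign: Solyc06g053710 (−0.30), Solyc05g055070 (−0.058), the coding region of Solyc09g009090 (−0.070), Solyc01g067890 (−0.19), Solyc06g074240 (−0.22), Solyc12g100330 (−0.10), *SlALKBH1* (−0.070), *SlALKBH5* (−0.28), Solyc01g088090 (−0.19) and *CD2* (−0.016). Leaving out 1 list turned the sign of Solyc06g069430 (−0.19 to 0.051), Solyc11g069190 (−0.18 to 0.039), Solyc12g011330 (−0.084 to 0.14), Solyc10g078190 (−0.14 to 0.12) and the 3′ UTR region of *SlALKBH6* (−0.13 to 0.020), none of them called. Apart from the scale, the cause of these changes was not tested.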

Other observations

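Groups of regions by the GO terms of the files also differed in how many rose. The terms with at least 15 tested regions numbered 99, and those below were chosen after their values were seen and were not tested as sets. Over all tested regions 19.2% rose and 1.79% fell as deposited, and 3.94% rose and 7.02% fell after centring. Of 311 regions of genes annotated with protein kinase activity, 91 rose and 4 fell as deposited (29.3% rose, against 19.2% of all tested regions), with a median difference of 0.37, and 23 rose and 15 fell after centring. Structural constituents of the ribosome, the proteins that build it, had 265 tested regions, of which 68 rose and 3 fell, with a median of 0.40, and 10 rose and 7 fell after centring. RNA binding proteins had 28 rises and 2 falls among 198 regions (14.1% rose) as deposited and 6 and 9 after centring, with 8 wild-type-only and 0 *Cnr*-only regions. Translation initiation factors had 2 rises and 0 falls among 36 regions (5.56% rose) as deposited, and 0 and 2 after centring. Of all 450 merged regions with the protein kinase annotation, 23 were *Cnr*-only and 11 wild-type-only, where 4.1 and 3.8% of all merged regions were. Genes annotated with metal ion transport had 1 rise and 4 falls among 25 regions as deposited, with a median of 0.12, and 0 rises and 6 falls after centring.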
